A study of Caenorhabditis elegans with 18 samples.

Results

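The glutathione S-transferases of Caenorhabditis elegans were followed across 18 whole-worm arrays. Members were all probe sets (groups of probes that report on 1 transcript or a few) whose annotated gene symbol began with gst- or gsto-, or was gstk-1 or gstk-2. The rule found 47 of the 22625 probe sets of the array, 46 with 1 symbol, covering 45 genes, and 1 with 2 symbols, whose genes are not named here. Of the 47, 34 had a mean signal high enough to be tested, and these held 33 named genes.

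All worms were wild type (N2), were kept at 20 °C on nematode growth medium and ate E. coli OP50. Control worms (n = 5) received neither agent. H2O2 worms (n = 5) were exposed to 0.3 mM hydrogen peroxide for 2 h at the L4 larval stage. TRF worms (n = 4) received a tocotrienol-rich fraction, a preparation of vitamin E compounds, for their whole life, and TRF+H2O2+TRF worms (n = 4) received it from hatching to day 3 of adulthood, before and after a peroxide exposure for which no dose is stated. The age at harvest was not stated for every group. Nothing in the labels ties the replicates to separate cultures, so a p-value here measures the spread between these arrays, which may be technical.

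Glutathione S-transferases join glutathione to reactive, electron-poor compounds, among them breakdown products of oxidised lipids, so that these can be made harmless and exported. The family is large in nematodes, and many of its members are made in the intestine. The transcription factor SKN-1, the worm counterpart of the Nrf proteins, switches on several of them under oxidative or electrophile stress and is held back by WDR-23. A gst-4 reporter is a standard readout of SKN-1 activity. The omega class (gsto genes) works with a cysteine and also reduces thiol-linked compounds, and the kappa class (gstk genes) is found in mitochondria and peroxisomes.

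No glutathione S-transferase probe set passed the test in any of the 5 pairwise comparisons of groups, nor in the test over all 4 groups, nor in the test of whether the peroxide difference depended on TRF. The test was limma's moderated test on log2(signal + 1), adjusted by the Benjamini-Hochberg method over all 13529 probe sets tested, with an adjusted p under 0.05 counted as a call. Of all probe sets tested, 0% were called in H2O2 against control, in TRF+H2O2+TRF against H2O2, in TRF+H2O2+TRF against control, in TRF+H2O2+TRF against TRF, in the dependence test and in the test over 4 groups, and 0.00739% (1 probe set, not of the family) in TRF against control. What follows therefore gives the levels, their spread and the size of the differences that the arrays leave possible. Because the RNA came from whole worms, fewer cells of a type and less RNA per cell cannot be told apart in any of these values.

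The arrays were alike in overall level, with a mean signal of 499.8 to 499.9 on each after trimming 2% of the probe sets at each end. Tissue marker lists, counted over the probe sets that passed the same signal minimum and were above 0 on every array, are given beside the comparisons below. Not every list is given for every comparison, and neuron markers are given for none. Among those left out, 16 of 23 sperm markers were higher in H2O2 than in control worms, by a median of 0.06. Of the body wall muscle markers, 8 of 10 were higher in TRF than in control worms, by a median of 0.12. In TRF+H2O2+TRF against H2O2, 8 of 10 were lower, by a median of -0.04. None of these was called.

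The genes fall into neighbourhoods in the RefSeq annotation of the WBcel235 assembly. The sources used here name no build for the array, so order along the chromosome is used and no coordinates. Of the 49 genes of the family in that table, 26 lie on chromosome II, 9 on V, 5 on IV, 4 on III, 3 on X and 2 on I. With at most 3 other coding genes between neighbours, chromosome II holds a run of 4 genes from gst-6 to gst-9, a run of 9 from gst-20 to gst-18 that includes gst-24, gst-15, gst-12, gst-16 and gst-19, and a run of 9 from gst-26 to gst-35 that includes gst-27, gst-28, gst-29 and gst-39. Chromosome IV holds the run gst-3, gst-2 and gst-4. The table's gst-25, gst-34, gst-35 and gst-37 carry no probe set with their symbol among those analysed here. Neighbouring copies can be close in sequence, and the probe sets of gst-9, gst-16, gst-19, gst-20, gst-27, gst-41 and gstk-2 carry the suffix by which Affymetrix marks probes shared by several transcripts, so their values are less certain as values of 1 gene.

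The 13 probe sets below the signal minimum, a geometric mean of 47.0 over the 18 arrays, belonged to gst-2, gst-8, gst-11, gst-14, gst-17, gst-18, gst-21, gst-23, gst-31, gst-32, gst-33 and gsto-2, and included a second gst-40 probe set. The chromosome II run from gst-20 to gst-18 thus had 6 of its 9 genes tested, the run from gst-26 had 5 of 9, and the run from gst-6 had 3 of 4. Low signal on an array does not show that a gene was silent, and these members are not described further.

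**Figure D1:**
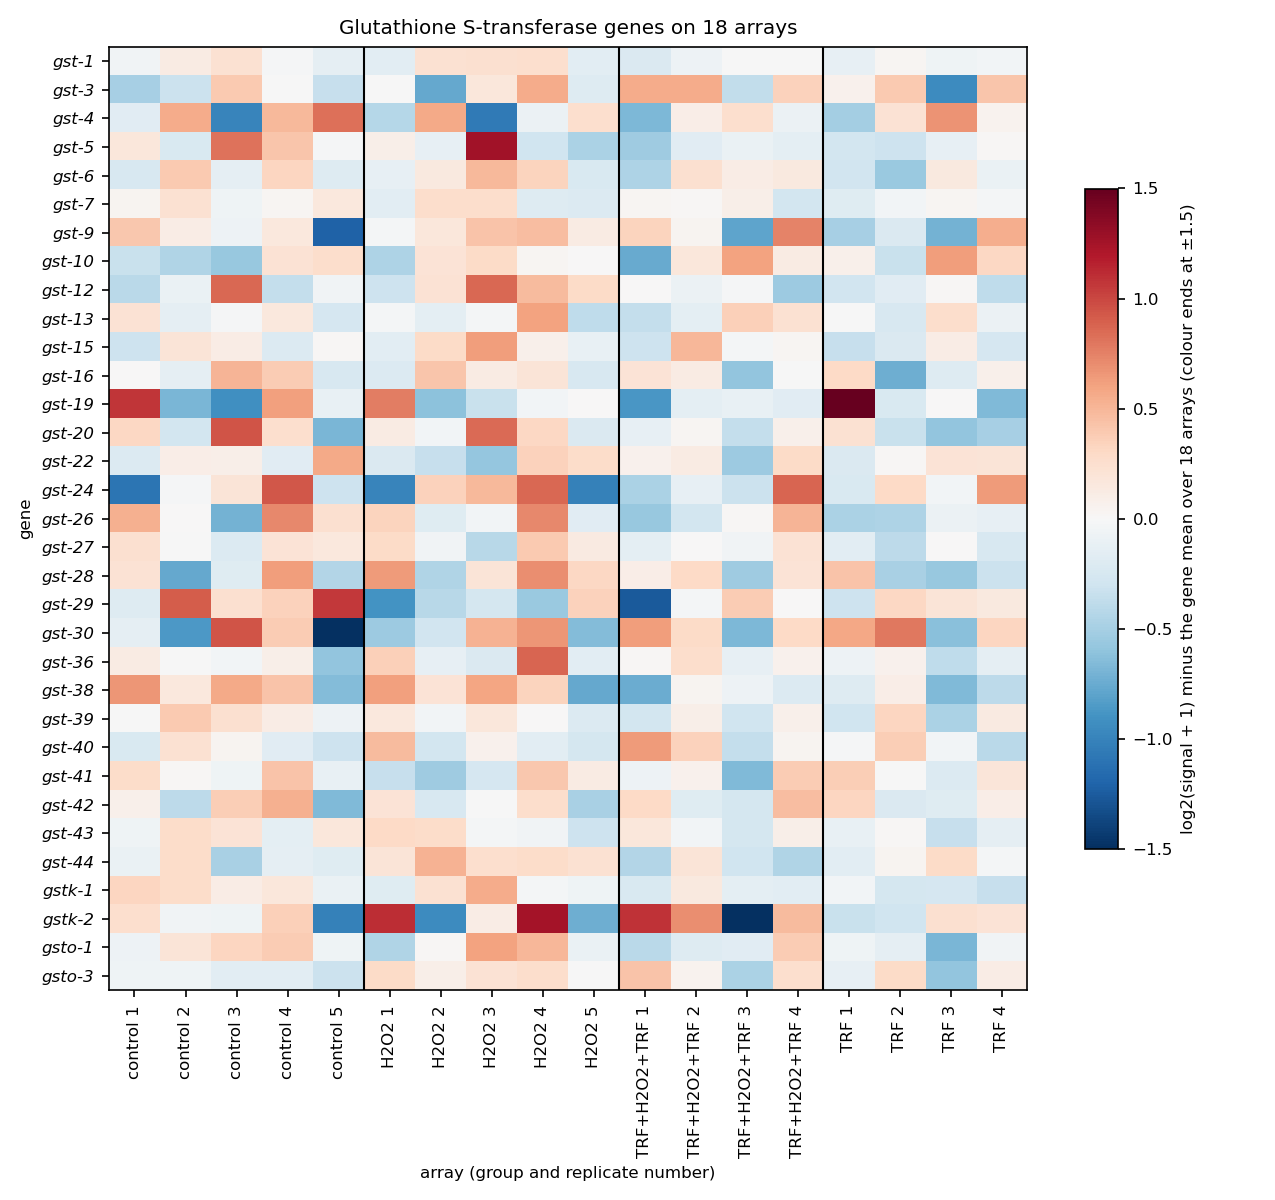
Each row is 1 of the 33 named and tested genes and each column 1 of the 18 arrays, and colour gives log2(signal + 1) minus the gene's mean over the 18 arrays, with red above and blue below that mean. No block of columns is red or blue through the rows of the family, while gst-4, gst-24, gst-30, gst-19 and gstk-2 differ from array to array within a group.

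The gene with the most even signal in the family was gst-1, a pi-class enzyme known to protect dopamine neurons from manganese. Its signal was 5376 ± 547 (SD) in control, 5609 ± 814 in H2O2, 4993 ± 338 in TRF+H2O2+TRF and 5069 ± 218 in TRF worms. All 18 arrays lay between 4521 and 6240, and the SD within groups was 0.15 on the log2 scale. The largest SD within groups, 0.96, was that of gstk-2, whose signal ran from 16.9 to 213. Over the 34 probe sets tested the median SD within groups was 0.36 on the log2 scale, against 0.32 over all probe sets tested.

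The signal of gst-4, a prostaglandin D synthase-like enzyme and SKN-1 target, varied more within groups than between them. In control worms replicates 1 to 5 gave 1043, 1729, 588, 1643 and 2084. In H2O2 worms they gave 873, 1745, 563, 1099 and 1393. The 4 TRF+H2O2+TRF arrays gave 735, 1259, 1398 and 1105, and the 4 TRF arrays 824, 1362, 1867 and 1214. All groups overlapped, and the lowest array of the control group and the lowest of the H2O2 group both had replicate number 3. The log2 difference of H2O2 from control was -0.29 ± 0.35 (SE), with a 95% interval from -1.05 to 0.46, or folds from 0.484 to 1.38, and a limma p of 0.417. The H2O2 array was the higher at 1 of 5 numbers. Such counts over replicate numbers, here and below, were not set beside a share over all probe sets tested. With the replicate number as a block the SE of that difference was 0.11, the limma p 0.0253 and the adjusted p 0.445, so the call was the same. With that block 9.51% of all probe sets tested had an unadjusted limma p under 0.05 in H2O2 against control. TRF differed from control by -0.04 ± 0.34 on the log2 scale (95% interval -0.77 to 0.70), and TRF+H2O2+TRF from H2O2 by 0.05 ± 0.29 (95% interval -0.58 to 0.68). The TRF+H2O2+TRF array was below the TRF array at all 4 numbers.

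**Figure D2:**
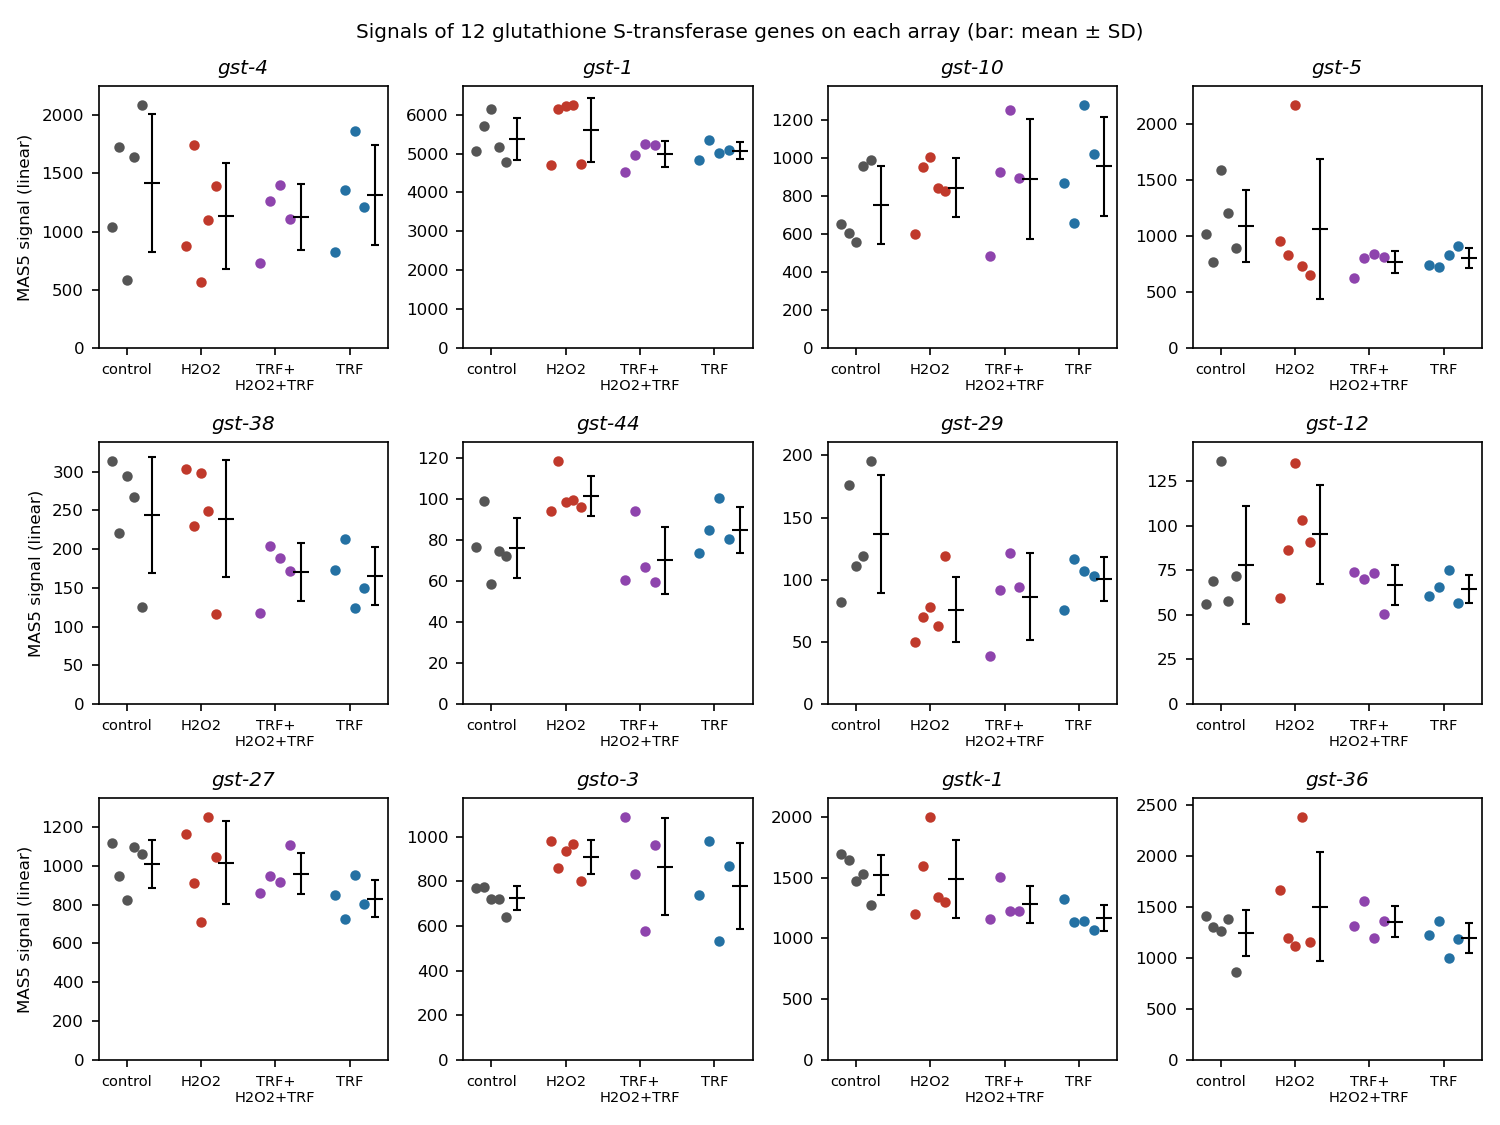
Each panel shows 1 gene, with the linear array signal on the vertical axis from 0, a point for each array in the order of replicate numbers, and a bar for the group mean ± SD. The 5 H2O2 arrays of gsto-3 lie above the 5 control arrays, the gst-4 groups overlap throughout, and in gst-38 replicate 5 of control (126) lies among the TRF-fed arrays and replicate 5 of H2O2 (116) below them.

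The first comparison of the series design, H2O2 against control, addresses what peroxide exposure of larvae left behind in the transcripts. Of the 34 probe sets, 17 were higher and 17 lower in H2O2 worms, with a median log2 difference of 0.0034 against -0.0019 over all probe sets tested. On unadjusted limma p under 0.05 there were 2 of 34, gsto-3 higher and gst-29 lower, where 2.34% of all probe sets reached that level. A pair of sets of arrays without overlap was seen for 1 of 34, gsto-3, against 0.473% of all. In the methods' t-test, an unpaired test without moderation, 3 of 34 (gsto-3, gst-29 and gst-44) reached p under 0.05, against 2.96% of all. With the replicate number as a block, 5 of 34 had an unadjusted limma p under 0.05, against 9.51% of all. These were gst-4, gsto-3, gst-29, gst-28 and gst-44, and none was called.

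The omega-class gene gsto-3 gave 772, 774, 720, 719 and 642 in control replicates 1 to 5 and 980, 859, 936, 969 and 801 in H2O2 replicates 1 to 5. The lowest H2O2 array was above the highest control array, and the H2O2 array was the higher at all 5 replicate numbers. The mean signal was 725 ± 53.8 (SD) in control and 909 ± 76.5 in H2O2 worms, a log2 difference of 0.32 ± 0.12 (SE, 95% interval 0.07 to 0.58). The limma p was 0.0169 and the adjusted p 1.00. With the replicate number as a block the SE was 0.095, the limma p 0.00593 and the adjusted p 0.312. With TRF the same gene ranged from 580 to 1086 in TRF+H2O2+TRF and from 533 to 983 in TRF arrays, both ranges wider than those of the groups without TRF. The related gsto-1, which is made in the intestine, gave 118.6 ± 17.4 in control and 118.7 ± 35.7 in H2O2 worms.

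The signal of gst-29, in the chromosome II run from gst-26, was 81.9, 176.0, 111, 118.8 and 195 in control replicates 1 to 5. In H2O2 replicates 1 to 5 it was 49.5, 69.8, 77.9, 62.96 and 118.7. The H2O2 array was the lower at all 5 numbers, although the groups overlapped through H2O2 replicate 5. The log2 difference was -0.83 ± 0.29 (95% interval -1.46 to -0.20), with a limma p of 0.0138 and an adjusted p of 1.00. With the replicate number as a block, which the deviations of these arrays bear out, the adjusted p was 0.209, the smallest in the family for this comparison. Of the 4 other tested genes of that run, gst-28 was 0.39 higher on the log2 scale, and gst-26, gst-27 and gst-39 differed by -0.03, -0.01 and -0.11. For gst-28 the H2O2 array was the higher at 5 of 5 numbers. Its limma p with the block was 0.0163 and the adjusted p 0.395.

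For gst-44 the control replicates gave 76.5, 99.3, 58.5, 74.6 and 72.4 and the H2O2 replicates 94.3, 118, 98.3, 99.6 and 96.2. Only control replicate 2 lay within the range of the H2O2 arrays. The log2 difference was 0.42 ± 0.20 (95% interval -0.02 to 0.86), with a limma p of 0.0595 and an adjusted p of 1.00, and the H2O2 array was the higher at 5 of 5 numbers. With the replicate number as a block the limma p was 0.0432 and the adjusted p 0.511.

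Beside these values, the 10 body wall muscle markers were all higher in H2O2 than in control worms, by a median of 0.35 on the log2 scale, with 0 of 10 called and 6 of 10 at an unadjusted limma p under 0.05. Their summed signal was 24671 to 34800 in control and 35174 to 44697 in H2O2 arrays, ranges that did not overlap. The 13 intestinal markers tested, of 14 listed, were higher in 12 and lower in 1, by a median of 0.15, with 0 called, 0 at an unadjusted limma p under 0.05 and summed signals of 53139 to 66899 in control and 62377 to 72600 in H2O2 arrays. All 5 yolk markers tested were higher, by a median of 0.11, with summed signals of 72055 to 86357 in control and 79748 to 96082 in H2O2 arrays. Of the oocyte and eggshell markers 16 of 17 were higher, by a median of 0.09, with 123758 to 138331 in control and 119517 to 151282 in H2O2 arrays. In both lists 0 were called and 0 had an unadjusted limma p under 0.05. The part of tissue makeup in the values of gsto-3, gst-29 and gst-44 was not tested.

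**Figure D3:**
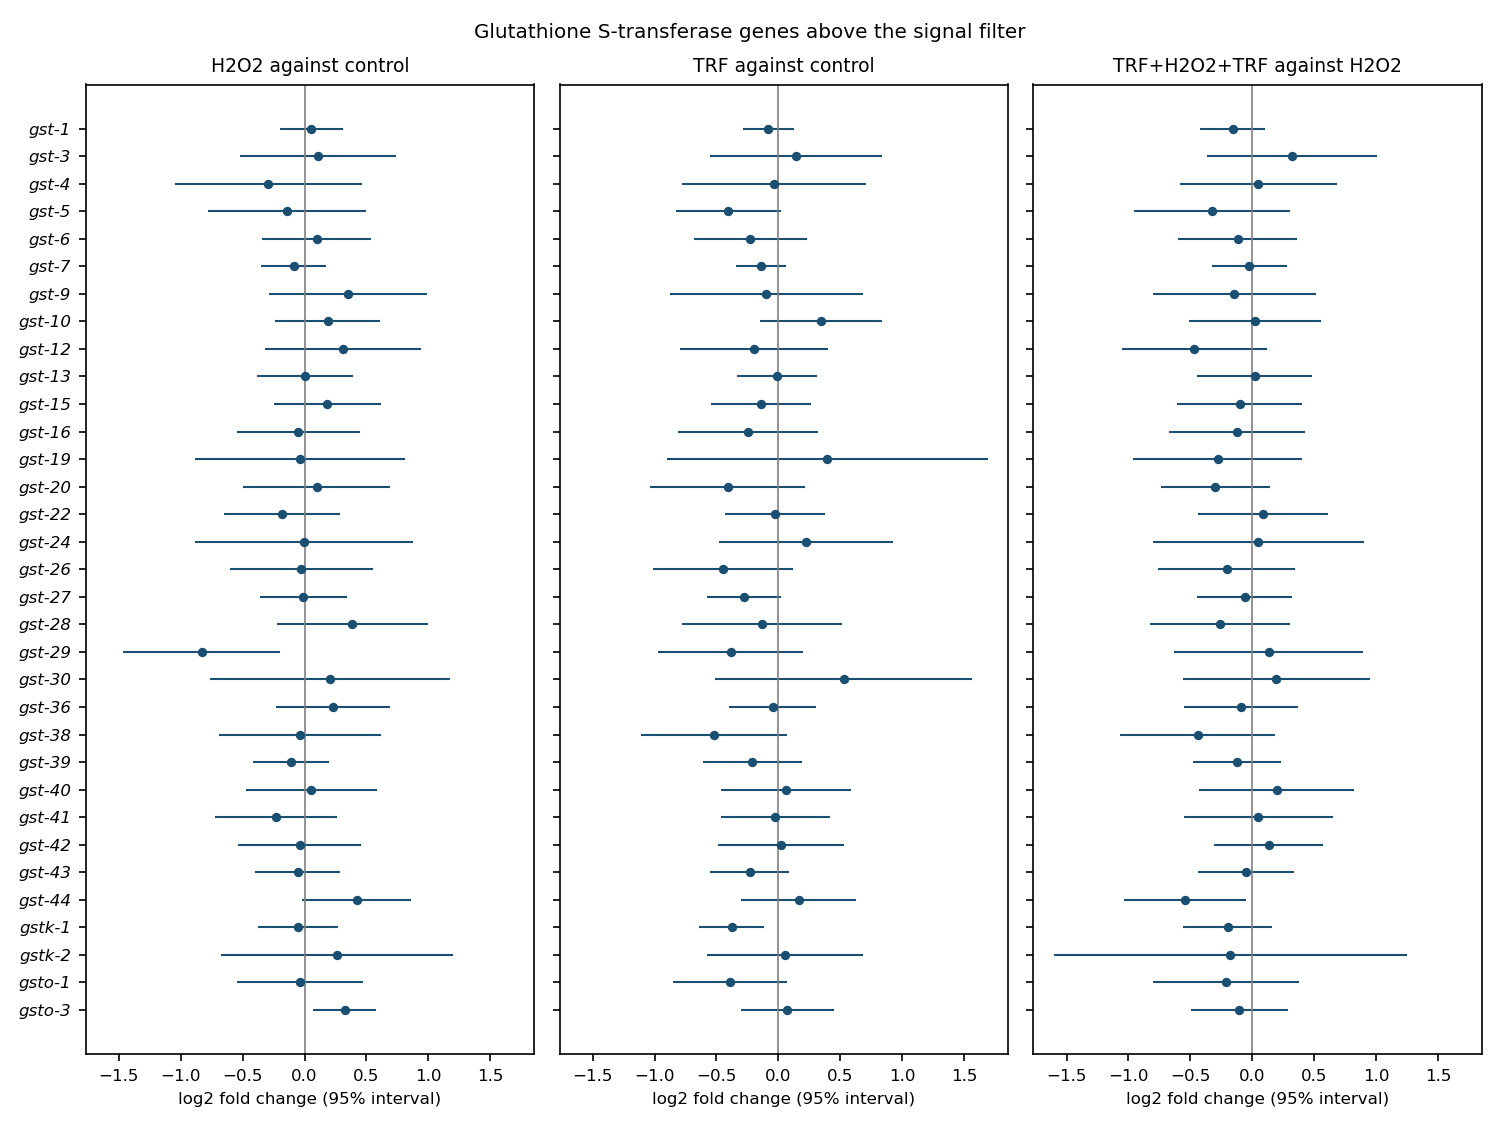
Points are log2 differences of the first group named from the second, for the 33 named and tested genes (rows) in the 3 comparisons of the series design (panels). Lines are 95% intervals from limma without the replicate block. Intervals lie clear of 0 for gsto-3 and gst-29 in H2O2 against control, gstk-1 in TRF against control and gst-44 in TRF+H2O2+TRF against H2O2, before any adjustment for the number of probe sets.

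The second comparison, TRF against control, addresses what the vitamin E preparation did in unstressed worms. In TRF worms 11 probe sets were higher and 23 lower, with a median log2 difference of -0.09, where the median over all probe sets tested was 0.04 and 57.6% of them were higher. None of the 34 was called, and 1 of 34, gstk-1, had an unadjusted limma p under 0.05, against 3.5% of all. None of the 34 had groups without overlap, against 1.18% of all, and 1 of 34 reached p under 0.05 in the methods' t-test, against 4.15% of all.

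The kappa-class gene gstk-1 gave 1698, 1648, 1471, 1529 and 1275 in control replicates 1 to 5, and 1327, 1139, 1144 and 1070 in TRF replicates 1 to 4. The groups overlapped only through TRF replicate 1 and control replicate 5. The log2 difference was -0.38 ± 0.12 (95% interval -0.64 to -0.12), a fold of 0.769, with a limma p of 0.00866 and an adjusted p of 0.995. The other kappa-class gene, gstk-2, gave 87.2 ± 27.4 (SD) in control and 87.8 ± 18.9 in TRF worms.

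The signal of gst-5, 1 of the enzymes known to act on the lipid breakdown product 4-hydroxynonenal, was 1018, 768, 1591, 1205 and 889 in control and 746, 726, 829 and 916 in TRF arrays. The log2 difference was -0.40 ± 0.19, with a limma p of 0.0588 and an adjusted p of 0.995. Control replicate 3 carried part of it, as the difference was -0.26 without that array. For gst-10, the best known of the 4-hydroxynonenal enzymes and linked to lifespan in worms, the direction was the other one, with 753 ± 205 (SD) in control and 957 ± 261 in TRF worms and overlapping arrays. The signal of gst-27 was 1118, 945, 824, 1096 and 1062 in control and 849, 723, 951 and 801 in TRF arrays, a log2 difference of -0.28 ± 0.14 with a limma p of 0.0632 and an adjusted p of 0.995.

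By neighbourhood, all 5 tested genes of the run from gst-26 were lower in TRF worms, by 0.13 to 0.44 on the log2 scale, with a median of -0.28. All 3 of the run from gst-6 were lower too, by a median of -0.14, while the run from gst-20 had 2 higher and 4 lower, with a median of -0.17. These are counts of genes whose single differences did not pass the test, read after their values were seen. Beside them, 22 of the 23 sperm markers tested, of 37 listed, were lower in TRF than in control worms, with a median of -0.16, 0 called and 0 at an unadjusted limma p under 0.05. The summed signals of these markers were 3680 to 30288 on control arrays and 2495 to 32901 on TRF arrays. Of the 13 intestinal markers tested, 6 were higher and 7 lower, by a median of -0.01. The part of germline and tissue makeup in the family's values was not tested.

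The third comparison, TRF+H2O2+TRF against H2O2, addresses whether TRF altered the transcripts of peroxide-exposed worms. Again 11 probe sets were higher and 23 lower, with a median of -0.10 against 0.02 over all. One comparison cannot stand as support for the other on that count, since the 34 genes are the same and are not replicates. None of the 34 was called, and 1 of 34, gst-44, had an unadjusted limma p under 0.05, against 2.23% of all. The same gene was the 1 of 34 without overlap, against 0.961% of all, and the 1 of 34 at p under 0.05 in the methods' t-test, against 2.71% of all.

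In TRF+H2O2+TRF replicates 1 to 4 the gst-44 signal was 60.3, 94.2, 66.6 and 59.7, beside the H2O2 values of 94.3 to 118. The gap between the groups was 94.24 to 94.34, and without TRF+H2O2+TRF replicate 2 the difference grew from -0.54 to -0.69. The standard error was 0.23, the limma p 0.0339 and the adjusted p 1.00. The TRF arrays gave 73.7, 84.7, 100 and 80.7, so H2O2 worms had the highest mean of the 4 groups at 101.3 ± 9.70 (SD) and TRF+H2O2+TRF worms the lowest at 70.2 ± 16.3, with 76.3 ± 14.7 in control and 84.9 ± 11.3 in TRF worms. The difference between the peroxide differences with and without TRF was -0.71 ± 0.28 (SE) on the log2 scale, with a limma p of 0.0201 and an adjusted p of 1.00. This was the 1 of 34 at an unadjusted p under 0.05 in that test, against 1.14% of all. The next smallest p-values there were those of gst-29, with a difference of 0.52 ± 0.46 and a p of 0.273, and gst-27, with 0.22 ± 0.22 and a p of 0.335. The gst-29 value was 0.32 without TRF+H2O2+TRF replicate 3 and 0.86 without replicate 1 of that group, and the gst-27 value was 0.09 without H2O2 replicate 3.

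The signal of gst-12 was 59.7, 86.3, 135, 103 and 90.6 in H2O2 and 74.2, 69.8, 73.4 and 50.3 in TRF+H2O2+TRF arrays, a log2 difference of -0.47 ± 0.27 with a limma p of 0.110. Control arrays of gst-12 gave 55.9, 69.0, 136, 57.8 and 71.7, so the highest array of the control group and the highest of the H2O2 group both had number 3.

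The signal of gst-38 was 303, 229, 299, 250 and 116 in H2O2 and 118, 204, 189 and 171 in TRF+H2O2+TRF arrays, a log2 difference of -0.44 ± 0.29 with a limma p of 0.152 and an adjusted p of 1.00. Control arrays gave 313, 221, 294, 267 and 126, and TRF arrays 173, 213, 124 and 150. The groups overlapped in both comparisons, through the control and H2O2 arrays numbered 5 at 126 and 116. Over all numbers, the arrays without TRF gave 116 to 313 and the TRF-fed arrays 118 to 213, ranges that overlapped. The arrays numbered 5 stand later in the deposit than the other 16. Without H2O2 replicate 5 the difference of TRF+H2O2+TRF from H2O2 was -0.68, and without TRF+H2O2+TRF replicate 1 it was -0.27. What sets the arrays numbered 5 apart was not tested.

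Beside this comparison, all 5 yolk markers tested, of 6 listed, had a lower mean with TRF+H2O2+TRF than with H2O2 alone, by a median of -0.18, with 0 called and 3 at an unadjusted limma p under 0.05. Their summed signals were 79748 to 96082 in H2O2 and 74867 to 80220 in TRF+H2O2+TRF arrays. Of the oocyte and eggshell markers 16 of 17 were lower, and of the sperm markers 21 of 23, by medians of -0.15 and -0.21, with 0 called and 1 and 0 at an unadjusted limma p under 0.05. Summed signals of the oocyte markers were 119517 to 151282 in H2O2 and 116723 to 136047 in TRF+H2O2+TRF arrays, and those of the sperm markers 2960 to 22778 and 3828 to 18720. Of the 13 intestinal markers tested, 3 were higher and 10 lower, by a median of -0.11. None was called, and 1 had an unadjusted limma p under 0.05. Their summed signals were 62377 to 72600 in H2O2 and 54995 to 66308 in TRF+H2O2+TRF arrays. The part of all these markers in the values of gst-44, gst-12 and gst-38 was not tested.

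Of the comparisons outside the series design, TRF+H2O2+TRF against control had 14 probe sets higher and 20 lower, with a median of -0.10 against 0.02 over all. It shares its control arrays with both earlier comparisons against control. At an unadjusted limma p under 0.05 it had 1 of 34, gst-5, against 2.84% of all, and 0 of 34 without overlap, against 1.03% of all. The gst-5 signal was 623, 801, 844 and 814 in TRF+H2O2+TRF arrays, a log2 difference of -0.47 ± 0.20 from control with a limma p of 0.0354 and an adjusted p of 1.00. The difference was -0.32 without control replicate 3. The next were gst-29, whose TRF+H2O2+TRF arrays gave 38.3, 91.4, 122 and 94.0 and a difference of -0.70 ± 0.35, and gstk-1, whose arrays gave 1162, 1509, 1229 and 1223 and a difference of -0.25 ± 0.13. Without TRF+H2O2+TRF replicate 1 the gst-29 difference was -0.35. Beside these values, 9 of 10 body wall muscle markers were higher in TRF+H2O2+TRF than in control worms, by a median of 0.34, with 0 called and 3 at an unadjusted limma p under 0.05, and summed signals of 27314 to 40880 against 24671 to 34800. Of the sperm markers 21 of 23 were lower, and of the oocyte and eggshell markers 13 of 17, by medians of -0.13 and -0.06, with 0 called and 0 at an unadjusted limma p under 0.05. Of the 13 intestinal markers tested, 7 were higher and 6 lower, by a median of 0.04. The part of tissue makeup in the values of gst-5, gst-29 and gstk-1 was not tested.

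TRF+H2O2+TRF against TRF sets worms with and without peroxide beside each other when both received TRF, although the length of TRF treatment may differ. Here 21 probe sets were higher and 13 lower, with a median of 0.04 against -0.01 over all. At an unadjusted limma p under 0.05 there were 0 of 34, against 1.46% of all, and 0 of 34 without overlap, against 1.09% of all. Without a replicate block the smallest p-values were those of gst-27 (log2 difference 0.21 ± 0.14, p 0.164 by limma), gst-36 (0.19 ± 0.14) and gst-44 (-0.29 ± 0.22). With the replicate number as a block, 0 of 34 had an unadjusted limma p under 0.05, against 6.46% of all. The SE of the gst-36 difference was then 0.082, the limma p 0.0502 and the adjusted p 0.765. The gst-27 arrays of TRF+H2O2+TRF worms gave 859, 949, 918 and 1106. The gst-36 arrays gave 1311, 1556, 1194 and 1364 in TRF+H2O2+TRF and 1228, 1357, 998 and 1188 in TRF worms, higher in TRF+H2O2+TRF at all 4 numbers but with overlap. The gst-27 difference was 0.14 without TRF+H2O2+TRF replicate 4, the gst-36 difference 0.10 without TRF replicate 3, and the gst-44 difference -0.43 without TRF+H2O2+TRF replicate 2. Beside them, 9 of 10 body wall muscle markers were higher in TRF+H2O2+TRF worms, by a median of 0.28, with 0 called and 1 at an unadjusted limma p under 0.05, and summed signals of 27314 to 40880 against 25234 to 34498 in TRF arrays. Of the 13 intestinal markers tested, 12 were higher and 1 lower, by a median of 0.07. None was called or had an unadjusted limma p under 0.05. Their summed signals were 54995 to 66308 in TRF+H2O2+TRF and 55002 to 60027.5 in TRF arrays. The part of both lists in these values was not tested.

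Over all 4 groups, the limma F-test gave an unadjusted p under 0.05 for 0 of 34, against 2.73% of all probe sets tested. The smallest p-values were 0.0515 for gstk-1, 0.0582 for gst-44 and 0.0651 for gst-29, each with an adjusted p of 1.00. For gst-30, a SKN-1 target, the group means were 95.9 ± 61.6 (SD) in control, 98.9 ± 42.9 in H2O2, 111 ± 37.2 in TRF+H2O2+TRF and 123 ± 44.8 in TRF worms, with a p of 0.666. For gst-10 they were 753 ± 205, 845 ± 157, 892 ± 315 and 957 ± 261 in the same order, with a p of 0.597. The zeta-class gst-42, an isomerase of tyrosine breakdown, gave 978 ± 324, 925 ± 193, 1018 ± 249 and 957 ± 171 with a p of 0.951, and gst-43 gave 479 ± 59.7, 465 ± 80.4, 445 ± 57.1 and 407 ± 41.6 with a p of 0.491. For gsto-1 they were 118.6 ± 17.4, 118.7 ± 35.7, 100.8 ± 25.2 and 90.9 ± 17.3, with a p of 0.340. Neighbours in each of these orders did not differ beyond their spread.

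Setting the 8 TRF-fed arrays against the 10 without TRF, a contrast added after the values were seen, left 12 probe sets higher and 22 lower, with a median of -0.12 against 0.03 over all. None was called (0% of all), and 2 of 34 had an unadjusted limma p under 0.05, against 5.26% of all. These were gstk-1, with a log2 difference of -0.29 ± 0.10 and a p of 0.00923, and gst-38, with -0.48 ± 0.21 and a p of 0.0315, both with an adjusted p of 0.867. With the replicate number as a block, which leaves the arrays numbered 5 with no TRF-fed partner, the gst-38 difference was -0.71 with an adjusted p of 0.114. Same-numbered arrays of TRF-fed and other groups did not deviate together throughout, with a lowest correlation of -0.224 in TRF against control. The block value is therefore not read further. The 9 peroxide-exposed arrays against the 9 others gave 24 higher and 10 lower, with a median of 0.04 against -0.01 over all, 0 called (0% of all) and 1 of 34 at an unadjusted p under 0.05, gst-29, against 2.61% of all.

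Taken as an average over the 34 probe sets, each centred on its mean over the 18 arrays, the family stood at 0.02 ± 0.14 (SD) on the log2 scale in control, 0.06 ± 0.17 in H2O2, -0.04 ± 0.17 in TRF+H2O2+TRF and -0.06 ± 0.06 in TRF arrays. All groups overlapped. The lowest array was TRF+H2O2+TRF replicate 3 at -0.22 and the highest H2O2 replicate 4 at 0.29. Control replicates 4 and 5 stood at 0.23 and -0.18, and H2O2 replicates 4 and 5 at 0.29 and -0.14, so the same numbers were highest and lowest in both groups. In TRF+H2O2+TRF and TRF arrays replicate 4 was also the highest, at 0.13 and -0.0094. Replicate 3 was the lowest there, at -0.22 and -0.13, but stood at 0.06 and 0.18 in control and H2O2.

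**Figure D4:**
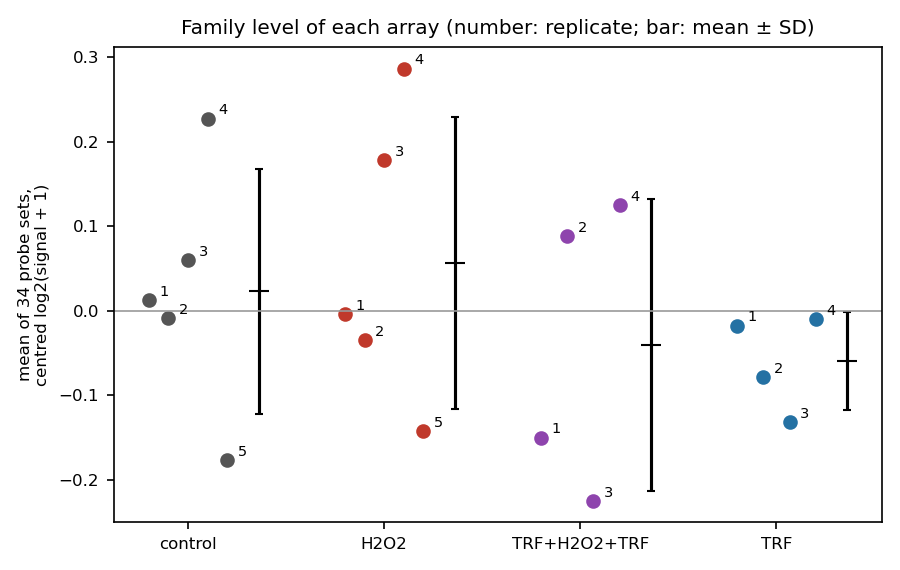
Each point is 1 array, labelled with its replicate number, and the vertical axis gives the mean over the 34 probe sets of log2(signal + 1) after centring each on its mean over 18 arrays, with bars for the group mean ± SD. Replicate 4 is the highest in all 4 groups, and all 4 groups overlap. The lowest is replicate 5 in control and H2O2 and replicate 3 in TRF+H2O2+TRF and TRF.

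The replicate number went with the level of several members. For gst-4, arrays of control and H2O2 stood in the same order for 9 of 10 pairs of numbers, and arrays of TRF and TRF+H2O2+TRF for 6 of 6. The same counts held for gst-24, whose control arrays gave 1142, 2402, 2785, 4660 and 1961 and whose H2O2 arrays gave 1225, 3094, 3416, 4438 and 1211. Its TRF arrays gave 2073, 3009, 2362 and 3786, and its TRF+H2O2+TRF arrays 1749, 2244, 1957 and 4449. An order kept in at least 14 of 16 pairs was found for 2 of the 34 (5.88%), gst-4 and gst-24, against 13.9% of all probe sets tested, so such agreement was not particular to the family. Number 3 of control and H2O2 had the highest signals of gst-5 in those groups (1591 and 2167) and of gst-20 (1793 and 1676).

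**Figure D5:**
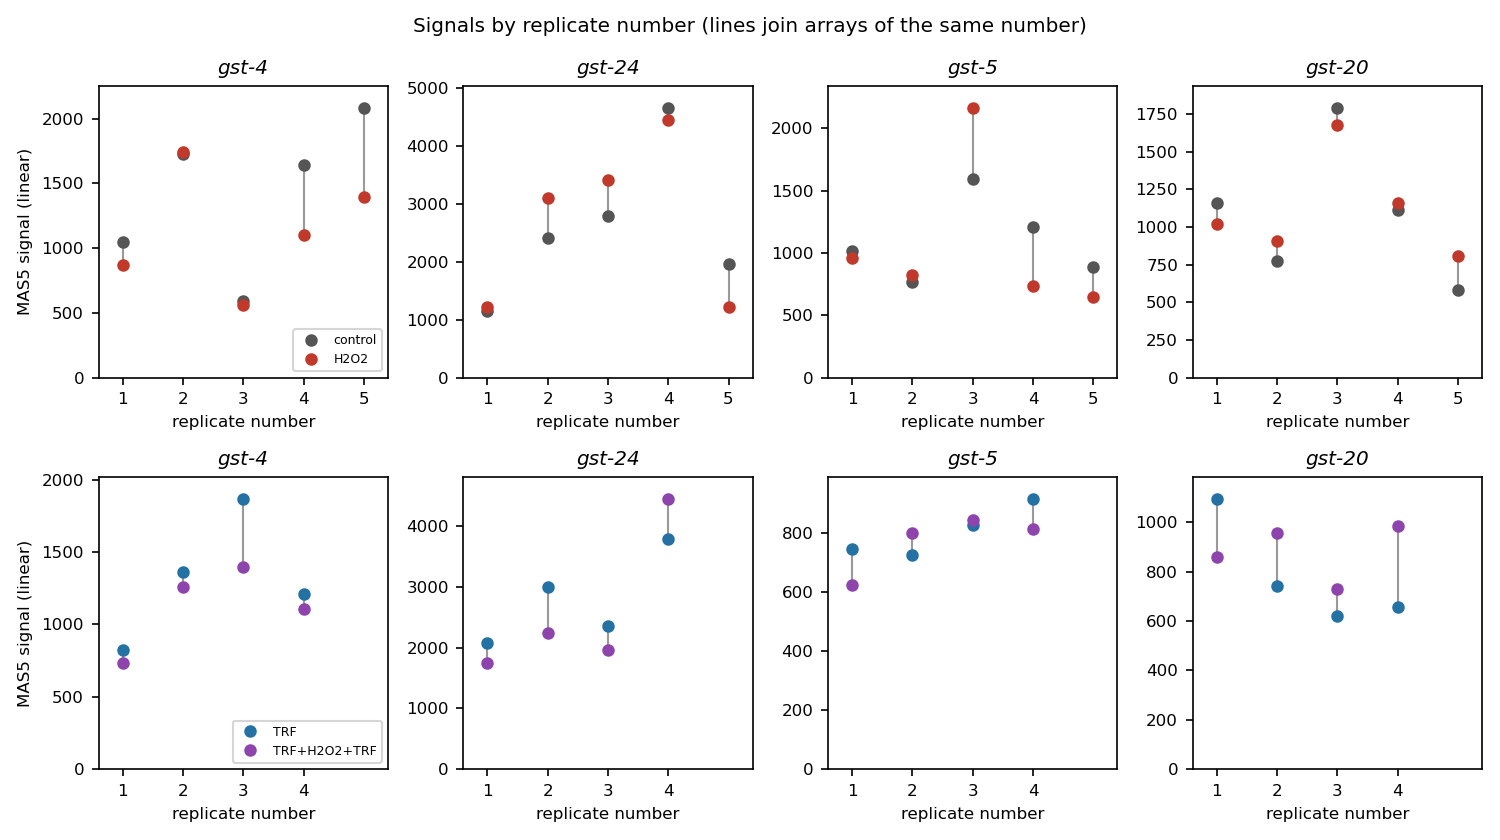
The horizontal axis is the replicate number and the vertical axis the linear signal from 0, with control and H2O2 arrays in the upper row, TRF and TRF+H2O2+TRF arrays in the lower row, and a line joining arrays of the same number. For gst-4 and gst-24 the distances along the lines are small beside the distances between numbers, and gst-5 and gst-20 peak at number 3 in control and H2O2.

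Replicate arrays also differed in ways that no group label gives. The gst-19 signal was 356 in TRF replicate 1 and at most 138 on the other 17 arrays. Sperm marker signal varied over a wide range within every group, as given above for control, H2O2, TRF+H2O2+TRF and TRF arrays. Epidermal markers summed to 5524 to 10835 in control and 5979 to 11264 in H2O2 arrays, against 7094 to 8266 in TRF+H2O2+TRF and 6543 to 8127 in TRF arrays.

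No member of 4 lists drawn from the wider glutathione pathway was called either. Of a list of 22 genes for glutathione synthesis, recycling and use, 17 were tested and 0 were called in any of the 5 pairwise comparisons. At an unadjusted limma p under 0.05 there was 1 of 17 in TRF+H2O2+TRF against TRF and 0 in the other comparisons. Medians of their log2 differences were -0.0041 in H2O2 against control, -0.07 in TRF against control and 0.03 in TRF+H2O2+TRF against H2O2. For gcs-1, the rate-limiting enzyme of glutathione synthesis and a SKN-1 target, the signal was 638 ± 111 (SD) in control, 692 ± 164 in H2O2, 700 ± 114 in TRF+H2O2+TRF and 775 ± 125 in TRF worms. For gsr-1, the reductase that regenerates glutathione, it was 5097 ± 124, 4989 ± 194, 5129 ± 322 and 5153 ± 45.8 in the same order, and the log2 difference of H2O2 from control was -0.03 ± 0.08 (SE).

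Of the 8 mrp genes, pumps of the class that exports glutathione conjugates, 8 were tested and 0 were called, with medians of 0.03, 0.15 and 0.03 in the same 3 comparisons and 1, 1 and 0 at an unadjusted limma p under 0.05. Of 10 genes that control SKN-1, 8 were tested, 0 were called, the medians were 0.02, 0.26 and 0.15, and 0, 1 and 0 had an unadjusted limma p under 0.05. Of these 8, 7 were higher in TRF than in control worms and 7 when TRF+H2O2+TRF was set against H2O2. Of all probe sets tested, 57.6% and 54.7% were higher in these 2 comparisons. The skn-1 signal was 852 ± 193 (SD) in control, 708 ± 127 in H2O2, 872 ± 73.0 in TRF+H2O2+TRF and 895 ± 245 in TRF worms. The wdr-23 signal was 762 ± 229, 883 ± 302, 908 ± 141 and 938 ± 126. Of 6 SKN-1 targets of detoxification other than transferases, gcs-1 among them, 6 were tested and 0 were called, with medians of 0.04, 0.24 and 0.06 and 0 at an unadjusted limma p under 0.05. None of the differences of gcs-1, gsr-1, skn-1 and wdr-23 had an unadjusted limma p under 0.05 in any of the 5 pairwise comparisons.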

How the data were processed

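Biotin-labelled total RNA was hybridised to Affymetrix arrays. The deposited values are intensity values, MAS5 signals on a linear scale, made with MAS5 and the Affymetrix Expression Console per the submitters' processing notes (versions not given), with the arrays scaled to a common trimmed mean. Depth is not defined for arrays, and their number (18) limits the precision. No microarray detection calls were used.

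Groups and replicate numbers came from sample titles. The 77 control probe sets were left out. Signals were taken as log2(signal + 1), and those 13529 of the remaining 22548 whose mean reached the 40th percentile were tested with limma 3.58.1 in R 4.3.3 (lmFit, eBayes with a variance trend, two-sided, arrays of the compared groups, Benjamini-Hochberg adjustment over all of them). Log2 differences are the first group minus the second. The methods' t-test is the unpaired test at p under 0.05 that the series design names.

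Described in full were the 3 members with the smallest p per comparison and a list of well-known members. Outside that rule, values of gst-19, gst-20, gst-24 and gst-28 were given after they had been seen. The members and gene lists were chosen with earlier results of these data known. Same-numbered arrays deviated together in H2O2 against control (correlations 0.280 to 0.681) and in TRF+H2O2+TRF against TRF (0.350 to 0.686), and not throughout in the other comparisons, so the number was a block in an alternative. Other alternatives changed the filter, normalization, pseudocount, weights and arrays included. Gene symbols came from the platform's annotation and gene order from RefSeq.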

Additional observations from a re-analysis of the deposited data

Results flagged for a closer look

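A single array stood far from the rest of its group in 5 of the 68 combinations of gene and group examined for the named members, where chance gives about 1 in 20. The gsto-1 signal of TRF replicate 3 was 65.2, below the other TRF arrays. The gst-12 signal was lowest at 50.3 in TRF+H2O2+TRF replicate 4 and highest at 136 in control replicate 3. The gst-36 signal of control replicate 5 was 860, below the other control arrays. The gst-44 signal of H2O2 replicate 2 was 118, above the other H2O2 arrays. The cause of these values was not tested.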

How the results depend on the processing

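No limma alternative called a member, whether the filter was removed or raised to the 60th percentile, arrays were quantile normalized or median centred, the pseudocount was 32, array weights or the replicate block were used, or single arrays were left out. The methods' t-test without adjustment gave 3 members for H2O2 against control and 1 for each of the other 2 comparisons of the series design, and 0 in each after adjustment. With the replicate block, unadjusted p under 0.05 was reached by 5, 5, 1, 3 and 0 of 34 members in the 5 pairwise comparisons, in the order described, beside 9.51%, 6.64%, 4.35%, 4.78% and 6.46% of all probe sets tested, with smallest adjusted p-values of 0.209, 0.468, 0.960, 0.926 and 0.765, and by 7 in the test over 4 groups beside 9.13% of all (smallest adjusted p 0.322). The block changed no call of a member. The family median in H2O2 against control ran from -0.07 (median centring) to 0.11 (without H2O2 replicate 5), and that of TRF+H2O2+TRF against TRF from -0.0019 to 0.14 (without TRF+H2O2+TRF replicate 4 and replicate 3). The medians of the other 3 comparisons stayed below 0 under every alternative run, from -0.19 to -0.06 in TRF against control, -0.17 to -0.05 in TRF+H2O2+TRF against H2O2 and -0.18 to -0.05 in TRF+H2O2+TRF against control. For gst-4 the difference of TRF from control was 0.14 with the replicate block and without arrays numbered 5, and ran from -0.32 to 0.17 with 1 array left out at a time. Its difference of TRF+H2O2+TRF from H2O2 ran from -0.18 to 0.24, and its difference of H2O2 from control from -0.58 (without control replicate 3) to -0.07 (without H2O2 replicate 3). The cause was not tested. Signal over background limits the 13 members below the filter, and may limit tested members with signals near it, such as gst-29, gst-44, gst-12 and gstk-2.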
